A study of Mus musculus with 12 samples.

Results

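The extracellular signal-regulated kinase (Erk) pathway carries dopamine D1 receptor signals towards chromatin. A set of 9 kinase genes of this pathway were followed across the striatum of hemiparkinsonian mice. They were picked by gene symbol, with earlier results of these data known, and comprise the MSK kinases *Rps6ka5* (Msk1) and *Rps6ka4* (Msk2), the RSK kinases *Rps6ka1*, *Rps6ka2*, *Rps6ka3* and *Rps6ka6*, the Erk gene *Mapk3* (Erk1), and the MEK genes *Map2k1* and *Map2k2*. These 9 genes, of 52169 symbols in the table, were represented by 103 of its 189364 named transcripts. Each gene is described by the transcript with the highest mean level over the 12 libraries. All 9 genes passed the filter on low counts in every comparison.

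The mice were female C57BL/6J animals in which 6-OHDA, a toxin taken up by catecholamine neurons, had been injected into the right medial forebrain bundle, with desipramine given to spare noradrenergic neurons. The acute group received a single injection of 10 mg/kg L-DOPA with 7.5 mg/kg benserazide, an inhibitor of its conversion outside the brain, and the chronic group received the same injection daily for 9 days. Tissue punches of the lesioned and of the unlesioned striatum were taken 1 hour after the last injection and sequenced as RNA libraries, with 3 libraries for each of the 4 combinations. All mice were lesioned on 1 side and all received L-DOPA, so no vehicle-treated or unoperated striatum enters these comparisons, and the unlesioned side served as the control.

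In the textbook cascade, Ras activates Raf, Raf phosphorylates the MEK kinases, and these phosphorylate Erk. Erk in turn activates the RSK and MSK families, which share a layout of a pair of kinase domains in a single chain. MSK kinases are nuclear and phosphorylate histone H3, HMGN1 and the transcription factor CREB, and in spiny neurons of the striatum this branch is engaged by D1 receptors when the dopamine innervation has been lost. The cascade acts through phosphorylation, which RNA levels do not measure. The values below are therefore the amounts of the kinases' transcripts and not their activity.

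The sequences just upstream of the most abundant transcript's start are shown for 3 genes whose levels, or whose comparison with a close relative, the results turn on. Each window is the 250 bases before the start, read from mm9 on the gene's own strand. The windows lay at chr12:101963331-101963580, minus strand for *Rps6ka5*; chr19:6915116-6915365, minus strand for *Rps6ka4*; and chrX:108576805-108577054, minus strand for *Rps6ka6*. Capitals mark the CRE half-site, TGACG or its reverse complement CGTCA, which is the core that CREB recognises, and the AP-1 site TGACTCA or TGAGTCA, which Fos and Jun proteins recognise.
Rps6ka5: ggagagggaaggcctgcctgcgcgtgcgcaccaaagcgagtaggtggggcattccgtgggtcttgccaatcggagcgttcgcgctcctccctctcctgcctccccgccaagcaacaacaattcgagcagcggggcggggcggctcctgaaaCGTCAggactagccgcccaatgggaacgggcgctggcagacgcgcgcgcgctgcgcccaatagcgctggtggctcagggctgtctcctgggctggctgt
Rps6ka4: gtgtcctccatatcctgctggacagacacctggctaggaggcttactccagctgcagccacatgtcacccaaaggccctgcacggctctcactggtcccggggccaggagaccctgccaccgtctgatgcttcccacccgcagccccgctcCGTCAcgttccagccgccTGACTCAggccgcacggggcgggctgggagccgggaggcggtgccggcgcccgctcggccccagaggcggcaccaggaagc
Rps6ka6: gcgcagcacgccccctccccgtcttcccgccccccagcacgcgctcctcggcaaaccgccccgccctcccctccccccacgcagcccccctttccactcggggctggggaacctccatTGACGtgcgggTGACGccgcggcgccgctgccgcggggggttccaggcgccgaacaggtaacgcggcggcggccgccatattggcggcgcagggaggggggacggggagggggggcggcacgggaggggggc

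The CRE half-site was found in 4 of 8 windows of these genes, on either strand, and in 22% of the 19776 windows of the same length upstream of all genes read, these genes included. Its first base lay 99 bases before the start in *Rps6ka5* and at the same distance in *Rps6ka4*. In *Rps6ka6* it lay at -132 and -121, and in *Map2k1* at -149 and -136. The full CRE, TGACGTCA, which contains the half-site, was present in none of the 8 windows and in 2.21% of all windows. The AP-1 site was present in *Rps6ka4* at -81 and in 3.1% of all windows. The Egr site GCGTGGGCG, searched on both strands, was in none of the 8 windows and in 0.819% of all windows. The 8 windows held between 63.2% and 78.4% G and C, above the median of 57.2% over all windows. Letter matches of this kind describe the sequence and do not show that a factor was bound. Windows on chromosome 18 were not used here.

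The libraries held between 87695043 and 173116525 counts, in which a read counts once for each annotated transcript it falls on. At that depth the limit that a count of 0 allows, 3 counts, corresponded to between 0.0171 and 0.0347 CPM, that is, counts scaled to a common library size, and the scarcest value of any of the 9 genes was 121 counts. No pair of replicates agreed within sampling noise. Libraries with the same replicate number on the lesioned and the unlesioned side deviated together, so the fit with the replicate number as a block is given wherever it changed a call. As a check of the tissue, all 13 spiny neuron markers were detected in every group, with summed levels between 2197 and 2998 CPM over the 12 libraries. Markers of cortical glutamatergic neurons summed to between 6.54 and 48.2 CPM.

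The 9 genes differed widely in abundance. Comparison between genes needs a level per length, and for this the authors' normalized expression (NE), a count scaled by transcript length and library size, was used. The mean NE over the 12 libraries was highest for *Map2k1*, which encodes MEK1, at 1.3. *Mapk3*, which encodes Erk1, followed at 0.766. *Map2k2*, which encodes MEK2, stood at 0.236 and *Rps6ka4* at 0.189. Below them came *Rps6ka5* at 0.124 and *Rps6ka3*, which encodes the RSK2 kinase, at 0.0983. The lowest NE values were those of *Rps6ka2* (RSK3) at 0.0664, *Rps6ka1* (RSK1) at 0.0377 and *Rps6ka6* (RSK4) at 0.0165. *Map2k1* thus stood 78.7 times above *Rps6ka6* on this scale. The order of neighbours held in all 12 libraries except for *Map2k2* over *Rps6ka4*, in 11 of 12, and *Rps6ka5* over *Rps6ka3*, in 10 of 12.

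**Figure D1:**
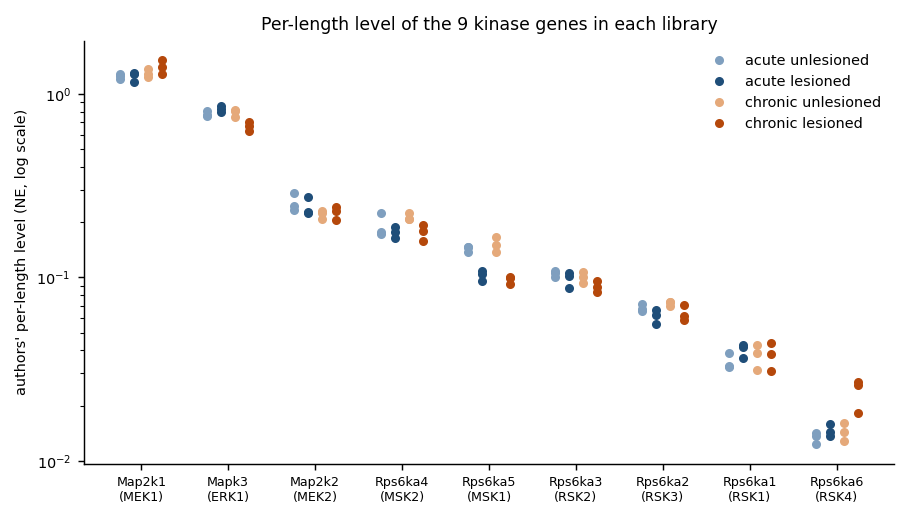
Per-length level (the authors' NE, log axis) of the 9 kinase genes, ordered by their mean, with a point for each of the 12 libraries coloured by group. *Map2k1* and *Mapk3* stood above the other genes in all libraries, *Rps6ka6* was the lowest in all of them, and the points of *Rps6ka5* and *Rps6ka3* overlapped.

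Few of the 9 genes were called, at an adjusted p below 0.05 over all transcripts tested. Between lesioned and unlesioned striatum 1 of 9, *Rps6ka5*, was called after acute L-DOPA, where 15.3% of all 20402 genes tested (1 transcript a gene) were called. After chronic L-DOPA 2 of 9, *Rps6ka5* and *Rps6ka6*, were called, against 13.7% of 19742 genes. Chronic against acute treatment called 2 of 9, *Rps6ka6* and *Mapk3*, in the lesioned striatum, against 25.6% of 19790 genes. With 9 genes such counts lie near the background, and nothing is read from them about the family. The background itself moved when 1 library was left out. It fell to as little as 8.96% after acute L-DOPA (without unlesioned replicate 3) and to 8.37% after chronic L-DOPA (without unlesioned replicate 3). For chronic against acute treatment in the lesioned striatum it ranged from 14% (without chronic lesioned replicate 1) to 31% (without chronic lesioned replicate 2).

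In the unlesioned striatum none of the 9 was called between chronic and acute treatment by edgeR, against 3.07% of 20290 genes, and DESeq2 called none. Only *Map2k2* had an unadjusted p under 0.05 there (0.0186). None of the 9 passed the edgeR test of the change of the lesion effect between treatments, against 5.1% of 20682 genes. In that test *Rps6ka6* and *Mapk3* (unadjusted p = 0.00257) were below 0.05 before adjustment and were called by DESeq2 (adjusted p = 0.0412 and 0.00919). DESeq2 was fitted without the filter on low counts and called 1381 of 39267 genes (3.52%). The edgeR fit called 1054 of 20682, so these percentages have unlike bases. With the replicate block edgeR called *Rps6ka6* and *Mapk3* too, beside 13.4% of 20682 genes. With 1 library left out, the background ranged from 0.0679% to 12.1% in the unlesioned striatum (without acute unlesioned replicate 2 and without chronic unlesioned replicate 2), and from 3.27% to 7.84% for the difference of the lesion effects (without acute unlesioned replicate 3 and without chronic lesioned replicate 2). On simulated data the edgeR test of that difference recovered 41 of 93 transcripts changed by 1 on the log2 scale, so a missed call there says little about smaller changes. The comparisons share libraries, so their counts are not independent.

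*Rps6ka5* (Msk1) was the only 1 of the 9 kinase genes called lower on the lesioned side, and it was called after both treatments. The fitted differences of *Rps6ka4*, *Rps6ka2* and *Rps6ka3* were also below 0 after both treatments, but none of them passed the test. After acute L-DOPA its level was 12.5, 13.2 and 13.7 CPM in the unlesioned striatum and 10.1, 10.3 and 8.83 CPM in the lesioned striatum. The sides did not overlap. The fall was -0.43 on the log2 scale (SE 0.07, edgeR quasi-likelihood test, adjusted p = 0.00219), a level 0.742 times that of the unlesioned side. After chronic L-DOPA the values were 14.9, 12.1 and 13.8 CPM in the unlesioned striatum and 9.53, 8.67 and 9.56 CPM in the lesioned striatum. Again the sides did not overlap. Here the difference was -0.55 (SE 0.09, adjusted p = 0.00372 in the edgeR test), a level 0.683 times that of the unlesioned side.

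No difference in the lowering of *Rps6ka5* was detected between 1 and 9 days of L-DOPA. The difference between the lesion effects was -0.12, with an interval of 2 SE from -0.36 to 0.12, and it did not pass the test (edgeR adjusted p = 0.644). Within the lesioned striatum the chronic and the acute libraries overlapped and differed by -0.07 (interval -0.24 to 0.10). On the unlesioned side they differed by 0.04 (interval -0.12 to 0.21). The call in both lesion comparisons was kept under each of the other settings that were run, the omission of any library included. The log2 difference after acute L-DOPA ranged from -0.47 to -0.37 over them.

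The lower level extended over the annotated transcripts of the gene. After acute L-DOPA all 13 tested *Rps6ka5* transcripts had a log2 difference below 0, from -0.77 to -0.22, and 10 of them were called, where 6.02% of all transcripts tested were called lower. After chronic L-DOPA all 12 tested transcripts were called lower, from -0.90 to -0.52, against 4.33% of all transcripts. These transcripts share exons and hence reads, so they are not independent measurements. The transcript used here, with 17 exons, spans chr12:101787990-101963330 on the minus strand of mm9.

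*Rps6ka4* (Msk2), the closest relative of *Rps6ka5*, was not called in any of the 5 comparisons. After acute L-DOPA its level was 11.7, 12 and 15.6 CPM in the unlesioned and 11.8, 12.6 and 13.2 CPM in the lesioned striatum, and the sides overlapped. The log2 difference was -0.06, with an interval from -0.26 to 0.13. After chronic L-DOPA it was 15, 13.8 and 14.5 CPM in the unlesioned and 13, 11.1 and 13.9 CPM in the lesioned striatum. The difference of -0.18 had an interval from -0.37 to 0.01 (edgeR adjusted p = 0.256). This value depended on how base composition was treated: with each library's trend with GC content and length removed, an alternative chosen after seeing the data, it was -0.29 and was called (adjusted p = 0.0466, or 0.00479 with the replicate block). The corresponding value of *Rps6ka5* was -0.53.

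The mean share of *Rps6ka5* within the MSK pair was lower on the lesioned side, and *Rps6ka5* was not tested against *Rps6ka4*. *Rps6ka5* contributed 43.1% ± 2.97 (SD, n = 3) of the summed NE of both MSK genes on the unlesioned side after acute L-DOPA and 36.9% ± 2.87 in the lesioned striatum. No library of the lesioned side, at most 39.2%, reached the lowest of the unlesioned side, at 39.7%. After chronic L-DOPA the share was 41.4% ± 1.51 and 35.6% ± 1.71, with ranges of 39.7% to 42.5% and 33.7% to 37%. *Rps6ka4* thus held the larger share of the MSK transcripts per length in all 12 libraries. These shares restate the levels above and were not tested separately.

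Markers of several cell types differed between the sides in the same libraries. *Drd1a*, which encodes the D1 receptor of spiny neurons, was 66.6 ± 3.52 CPM (SD, n = 3) in the unlesioned and 13.5 ± 2 CPM on the lesioned side after acute L-DOPA, and 70.1 ± 5.37 and 28 ± 5.41 CPM after chronic L-DOPA. The spiny neuron marker *Tac1* averaged 50.7 and 94 CPM on the unlesioned and lesioned side after acute L-DOPA. After chronic L-DOPA it averaged 57.2 and 89.3 CPM. *Pdyn*, another such marker, averaged 30.7 and 18.1 CPM after acute and 32.6 and 184 CPM after chronic L-DOPA. Of the 13 spiny neuron markers, 5 were called higher and 6 lower on the lesioned side after acute L-DOPA, and 3 higher and 1 lower after chronic L-DOPA. Their median log2 differences were -0.20 and -0.03. In a punch of tissue, fewer cells of a type and less RNA per cell cannot be told apart. The 8 cortical markers, none of them at 0 in any group, summed to 17.9 to 36.4 CPM in the unlesioned and 8.38 to 22.7 CPM on the lesioned side after acute L-DOPA, and to 11.2 to 48.2 and 6.54 to 27.9 CPM after chronic L-DOPA. The largest single contribution was that of *Slc17a7*, at 14.7 and 5.03 CPM on the unlesioned and lesioned side after acute L-DOPA, a difference that was not called. The means of *Fezf2* (0.732 and 0.828 CPM), *Cux2* (2.37 and 3.02 CPM) and *Rorb* (2.36 and 2.84 CPM) were higher on the lesioned side after acute L-DOPA, and of these 3 only *Cux2* was called. Of the other 5, all lower in the mean, *Neurod6* was called. After chronic L-DOPA the means of all 8 cortical markers were lower on the lesioned side, and none was called. With the cortical marker score as a covariate, also chosen after seeing the data, *Rps6ka5* differed by -0.43 (adjusted p = 0.00144) and -0.48 (adjusted p = 0.044).

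Glial markers differed between the sides as well. *Gfap*, which encodes a filament protein of reactive astrocytes, was 16.3 ± 1.24 CPM (SD, n = 3) in the unlesioned and 38.6 ± 11.1 CPM on the lesioned side after acute L-DOPA (edgeR adjusted p = 0.000302), and 14.1 ± 4.76 and 54.8 ± 14.9 CPM after chronic L-DOPA (adjusted p = 0.000446). The 7 astrocyte markers, none of them at 0 in any group, summed to 514 to 570 CPM in the unlesioned and 573 to 734 CPM on the lesioned side after acute L-DOPA, and to 513 to 603 and 610 to 640 CPM after chronic L-DOPA, without overlap. Of these 7, 2 (*Gfap* and *Gja1*) were called higher after acute and 1 (*Gfap*) after chronic L-DOPA. The 8 microglia markers, also detected in all groups, summed to 75.5 to 78.9 and 84.1 to 98.8 CPM after acute L-DOPA, with 3 called higher (*Tmem119*, *C1qa* and *C1qb*). After chronic L-DOPA their sums of 50.6 to 66.3 and 53.2 to 67.6 CPM overlapped. The 8 oligodendrocyte markers summed to 2161 to 2414 and 2189 to 3621 CPM after acute L-DOPA, with 1 called higher, and to 1627 to 2319 and 1209 to 2180 CPM after chronic L-DOPA. The part of glial cells in the difference of *Rps6ka5* was not tested.

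The RSK genes, whose products act in the cytoplasm and nucleus on ribosomal protein S6 and on transcription factors, were split. *Rps6ka1*, *Rps6ka2* and *Rps6ka3* were not called in any comparison, whereas *Rps6ka6*, the scarcest of the 9 genes, was called higher on the lesioned side after chronic L-DOPA. Its level there was 2.51, 2.54 and 1.81 CPM, from 220, 275 and 199 counts. On the unlesioned side of chronically treated mice it was 1.45, 1.14 and 1.35 CPM. The groups did not overlap, although the library labelled replicate 3 stood well below the other two on the lesioned side. The difference was 0.80 (SE 0.16, edgeR adjusted p = 0.00802), a level 1.74 times that of the unlesioned side.

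After acute L-DOPA *Rps6ka6* was not called. Its values were 1.25, 1.35 and 1.16 CPM in the unlesioned and 1.33, 1.4 and 1.41 CPM in the lesioned striatum, and the sides overlapped. The log2 difference of 0.14 had an interval from -0.07 to 0.35. Between lesioned striata, chronic exceeded acute treatment by 0.73 (SE 0.14, edgeR adjusted p = 0.00495), with no overlap. Between unlesioned striata the difference was 0.06 (interval -0.18 to 0.31). The lesion effect was larger after chronic than after acute L-DOPA by 0.66 (SE 0.19). This test of the difference missed the threshold (edgeR adjusted p = 0.0658, unadjusted p = 0.00359) and passed it with the replicate block (0.65, adjusted p = 0.0319).

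Of the 19 annotated *Rps6ka6* transcripts, 12 were called higher in the lesioned striatum of chronically treated mice and 12 of 18 tested were called higher against acute treatment, beside 7.71% and 12.1% of all transcripts called higher. No transcript was called lower in either comparison. The uncalled ones were the scarcer transcripts, whose standard errors were wider. The transcript used here spans chrX:108501801-108576804 on the minus strand. *Rps6ka6* made up 11% ± 1.64 (SD, n = 3) of the summed NE of the 4 RSK genes on the lesioned side after chronic L-DOPA, with a range of 9.2% to 12.4%. In the other groups the share was 6.06% ± 0.613, 6.79% ± 0.721 and 6.42% ± 0.73, and no library of these groups was above 7.6%.

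*Rps6ka3* (RSK2) was the main RSK transcript per length, with 41.7% to 47.5% of the family's summed NE by group. Its CPM lay between 13.4 and 17.2 in all 12 libraries. Its fitted differences lay between -0.13 and -0.04 in the 5 comparisons, and did not pass the test. The sign depended on the transcript: of the 14 annotated *Rps6ka3* transcripts, 12 had a difference above 0 after chronic L-DOPA, with values from -0.08 to 0.27, and 11 for chronic against acute treatment in the lesioned striatum, from -0.15 to 0.25. After acute L-DOPA they ran from -0.09 to 0.11, in the unlesioned striatum from -0.10 to 0.17, and for the difference of the lesion effects from -0.06 to 0.16. No transcript of the gene was called in any comparison. *Rps6ka2* (RSK3) lay between 7.16 and 8.78 CPM and its differences between -0.11 and 0.07. *Rps6ka1* (RSK1) was 2.3, 2.34 and 2.8 CPM in the unlesioned and 3.1, 2.68 and 2.95 CPM on the lesioned side after acute L-DOPA. Its difference of 0.24 had an interval from 0.04 to 0.45 and did not pass the test across all transcripts (edgeR adjusted p = 0.14). Exons of *Rps6ka1* overlap the opposite-strand gene *Gm12977* over 247 bases, 5.8% of its exon bases, and no strand setting is stated for the counts. No exon overlap with another annotated gene was found for the other 8 genes.

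**Figure D2:**
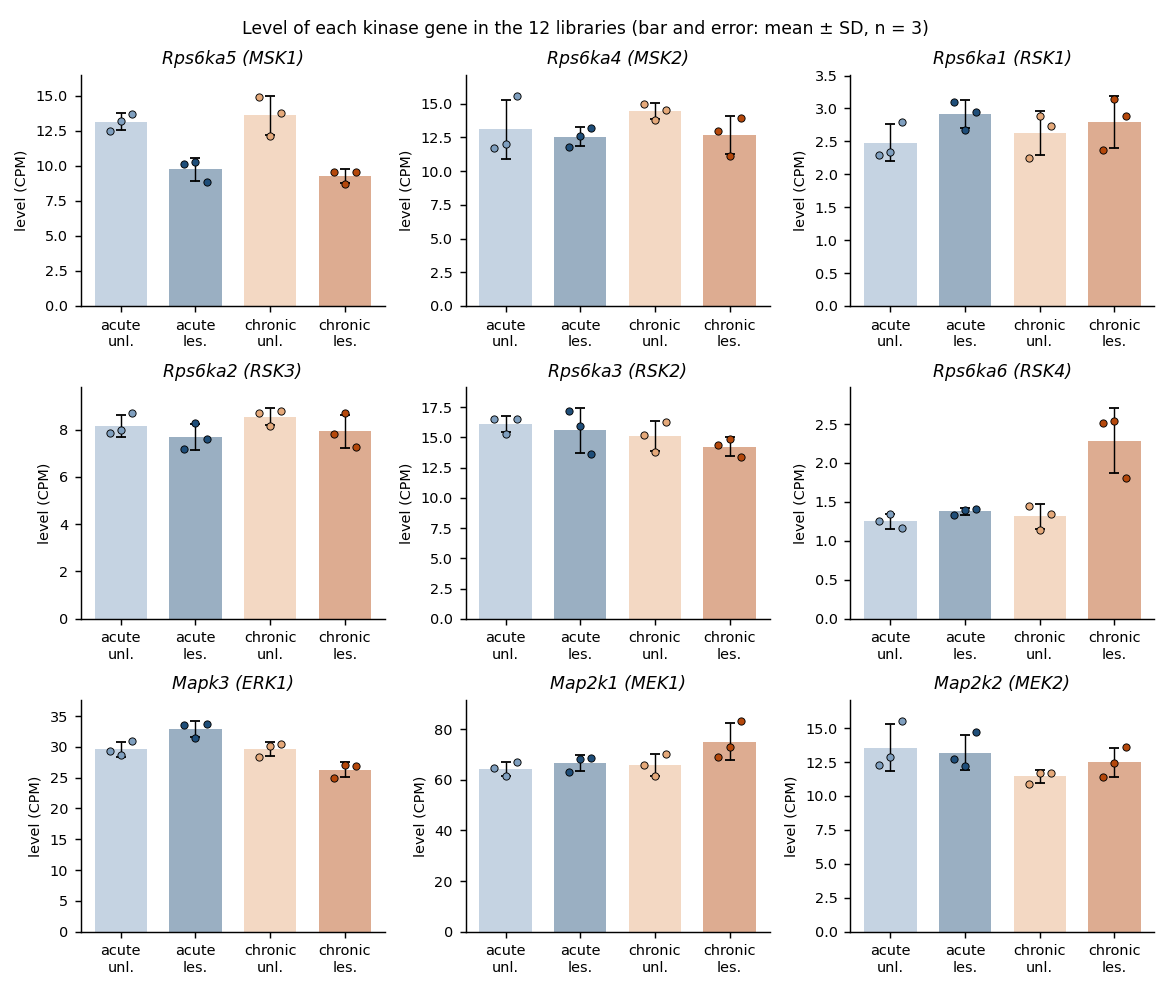
Level (CPM, linear axes from 0) of each kinase gene in the 12 libraries; points are libraries, bars and error bars the mean ± SD of 3. *Rps6ka5* was lower in all lesioned (les.) than in all unlesioned (unl.) libraries of the same treatment, *Rps6ka6* was highest in the 3 chronic lesioned libraries, and *Mapk3* separated the acute from the chronic lesioned libraries.

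*Mapk3* (Erk1) separated the lesioned striata by treatment. Its level was 33.5, 31.4 and 33.7 CPM after acute and 24.9, 27.1 and 26.9 CPM after chronic L-DOPA. The groups did not overlap, and the difference was -0.32 (SE 0.07, edgeR adjusted p = 0.0104), a level 0.8 times that after acute treatment. All 5 annotated *Mapk3* transcripts were called lower, against 11.2% of all transcripts. On the unlesioned side the values were 29.3, 28.6 and 30.9 CPM after acute and 28.4, 30.1 and 30.4 CPM after chronic L-DOPA. That difference was 0.00 (interval -0.13 to 0.13). The call on the lesioned side was lost without the first chronic lesioned library (-0.28, adjusted p = 0.0501).

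Relative to the unlesioned side, *Mapk3* stood higher after acute and lower after chronic treatment. All 3 lesioned libraries exceeded all 3 unlesioned ones after acute L-DOPA, by 0.16 (SE 0.06), which was not called (edgeR adjusted p = 0.106) but passed with the replicate block (adjusted p = 0.042). All 3 lay below them after chronic L-DOPA, by -0.17 (SE 0.08), which was not called (adjusted p = 0.181). With the GC and length trend removed these values became 0.07 (adjusted p = 0.351) and -0.27 (adjusted p = 0.0177). The lesion effects differed by -0.33 (SE 0.09). The difference missed the threshold (edgeR adjusted p = 0.0543) and passed it with the replicate block (adjusted p = 0.0104).

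Glial markers also differed by treatment between the lesioned libraries. All 8 oligodendrocyte markers and 6 of 8 microglia markers were called lower after chronic than after acute treatment on the lesioned side. Summed levels of the oligodendrocyte markers were 2189 to 3621 CPM after acute and 1209 to 2180 CPM after chronic L-DOPA, and those of the microglia markers 84.1 to 98.8 and 53.2 to 67.6 CPM. Their median log2 differences were -0.84 and -0.57. The 7 astrocyte markers summed to 573 to 734 and 610 to 640 CPM, which overlapped, and 3 were called lower. On the unlesioned side the microglia sums were 75.5 to 78.9 CPM after acute and 50.6 to 66.3 CPM after chronic L-DOPA, with 3 called lower. Those of the oligodendrocyte markers were 2161 to 2414 and 1627 to 2319 CPM, with 0 called. Whether these cells had a part in the differences of *Mapk3* and *Rps6ka6* was not tested.

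The MEK genes upstream of Erk, each given by its most abundant transcript, were not called in any comparison. *Map2k1* (MEK1) lay between 61.4 and 83.1 CPM over the 12 libraries. In the lesioned striatum it was 63.1, 68.4 and 68.8 CPM after acute and 69.1, 73.1 and 83.1 CPM after chronic L-DOPA, without overlap. The difference of 0.17 had an interval from -0.00 to 0.34 (edgeR adjusted p = 0.178). *Map2k2* (MEK2) lay between 10.9 and 15.5 CPM. On the unlesioned side it was 12.3, 12.9 and 15.5 CPM after acute and 10.9, 11.7 and 11.7 CPM after chronic L-DOPA. Its difference there, -0.24 (SE 0.09), did not pass the test (edgeR adjusted p = 0.147). All 13 annotated *Map2k2* transcripts lay below 0 in that comparison, from -0.45 to -0.13, and 1 of them, a scarce one, was called lower, beside 1.64% of all transcripts.

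**Figure D3:**
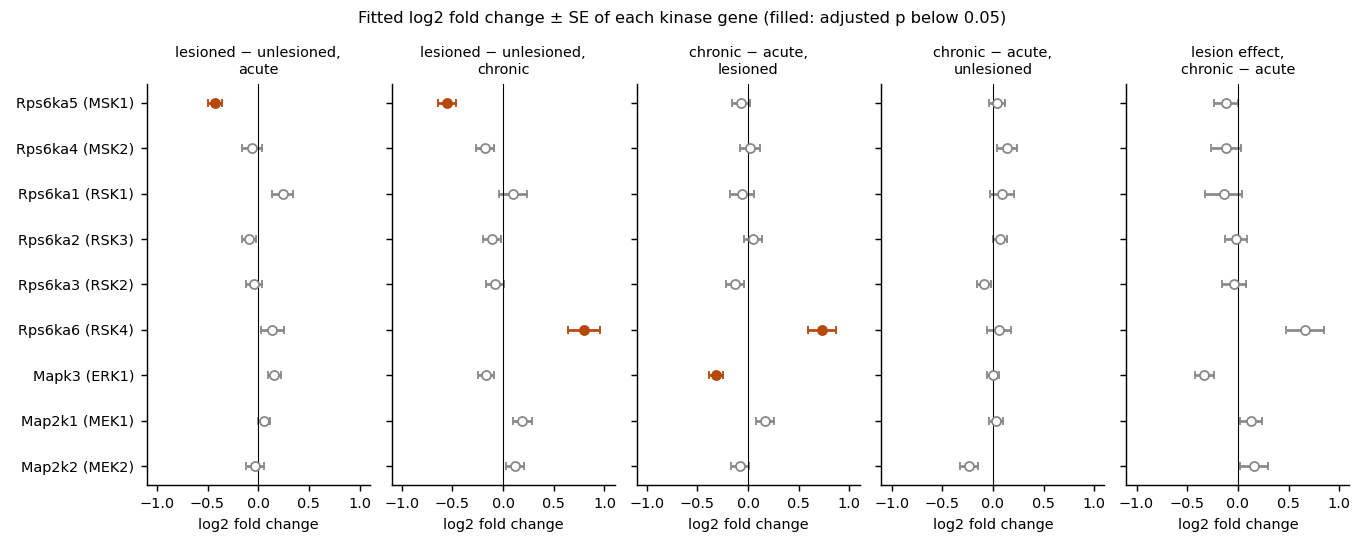
Fitted log2 fold change (horizontal axes, error bars ± SE) of each kinase gene in the 5 comparisons; filled points passed an adjusted p below 0.05. *Rps6ka5* is filled at -0.43 and -0.55 in the lesion comparisons, *Rps6ka6* at 0.80 and 0.73 and *Mapk3* at -0.32, and no point is filled in the last 2 panels.

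**Figure D4:**
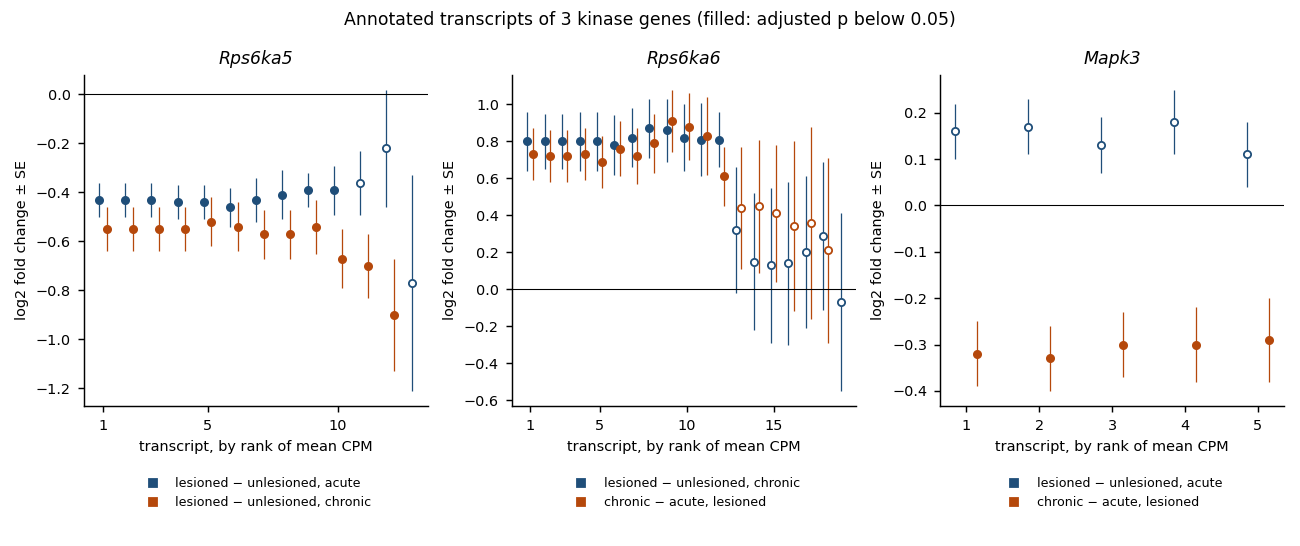
Log2 fold change (vertical axes, error bars ± SE) of the annotated transcripts of *Rps6ka5*, *Rps6ka6* and *Mapk3*, ordered by mean CPM; filled points passed an adjusted p below 0.05. All tested *Rps6ka5* transcripts lie below 0 in both lesion comparisons, 12 *Rps6ka6* transcripts are filled in each of its comparisons, and the 5 *Mapk3* transcripts lie above 0 after acute L-DOPA and below 0 for chronic against acute treatment.

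Around the 9 kinases, 61 other genes of the Ras and MAPK pathway were listed, from exchange factors to phosphatases. All but 1 were tested. Between lesioned and unlesioned striatum 8 of 60 were called higher and 12 lower after acute L-DOPA, beside 8.16% and 7.16% of all genes tested, with a median difference of -0.03 beside 0.02. After chronic L-DOPA 12 were called higher and 4 lower, beside 8.46% and 5.2% of all genes, with a median of 0.06 beside -0.01. Chronic against acute treatment called 15 higher and 8 lower in the lesioned striatum, beside 12.5% and 13.1%, and 1 higher and 1 lower in the unlesioned striatum, beside 1.07% and 2%. The lesion effect was called larger after chronic treatment for 7 and smaller for 1, beside 3.53% and 1.56%. The largest differences belonged to the feedback phosphatases that remove phosphate from Erk. *Dusp6* was 11.2 ± 0.406 CPM on the unlesioned and 61.9 ± 11.3 CPM (SD, n = 3) on the lesioned side after acute L-DOPA (2.47, SE 0.11, edgeR adjusted p = 2.68e-08). *Dusp5* was 2.93 ± 0.414 CPM on the unlesioned and 68.5 ± 6.13 CPM on the lesioned side after chronic L-DOPA (4.55, SE 0.13, adjusted p = 1.28e-08).

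Among the other pathway genes that met the naming rule, the phosphatase gene *Dusp1* was higher on the lesioned side by 2.36 after acute and 3.52 after chronic L-DOPA. *Mknk2*, which encodes a kinase that is a target of Erk, was higher by 1.29 and 1.61. The tyrosine phosphatase gene *Ptpn7* was lower by -1.29 and -1.39. *Spred2*, an inhibitor of the Ras to Raf step, was lower by -0.54 and -0.44, and *Dusp7* by -0.35 and -0.67, all of these called. The *Spred2* relative *Spred1* was called lower after acute (-0.78) and not after chronic L-DOPA (-0.13), and the exchange factor gene *Rasgrp2* after chronic (-0.72) and not after acute L-DOPA (-0.18). Chronic exceeded acute treatment in the lesioned striatum for *Dusp5* (3.00), *Dusp4* (1.41) and *Map2k3* (1.31), and *Dusp6* (-1.67), *Rasgrp2* (-0.66) and *Spry1* (-0.61) were lower. The call of *Spry1* was lost without acute lesioned replicate 2 (-0.49, adjusted p = 0.052). In the unlesioned striatum the exchange factor gene *Rasgrf1* was higher (0.72, adjusted p = 0.0412) and *Dusp6* lower (-0.48, edgeR adjusted p = 0.0116) after chronic treatment. The call of *Rasgrf1* held in 9 of 16 alternatives, with values from 0.45 to 0.85 and adjusted p from 0.00174 to 0.172, and was lost without any 1 of the 3 acute unlesioned libraries or without chronic unlesioned replicate 3. That of *Dusp6* held in 13 of 16, and was lost without acute unlesioned replicate 1 (adjusted p = 0.0627) or replicate 2 (adjusted p = 0.0721).

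Transcripts of 5 substrates of MSK were measured as well. *H3f3b*, which encodes histone H3.3, was higher on the lesioned side by 0.68 (SE 0.07, edgeR adjusted p = 3.53e-05) after acute and 0.76 (SE 0.08, adjusted p = 0.000128) after chronic L-DOPA. On the unlesioned and lesioned side it was 15.2 ± 0.903 and 24.4 ± 1.2 CPM (SD, n = 3) after acute L-DOPA. After chronic L-DOPA it was 15.1 ± 0.545 and 25.6 ± 1.47 CPM. *Hmgn1*, a nucleosome-binding protein gene, was lower after chronic than after acute treatment on the lesioned (-0.43, adjusted p = 0.0107) and the unlesioned side (-0.37, adjusted p = 0.0339). Both genes have processed copies elsewhere in the genome, and how reads with several positions were counted is not stated. *Creb1*, *Atf1* and *H3f3a* were not called in any comparison. *H3f3a*, which also encodes histone H3.3, averaged 3.37 and 3.6 CPM on the unlesioned and lesioned side after acute L-DOPA. After chronic L-DOPA it averaged 3.56 and 3.13 CPM. Levels of *Creb1* lay between 7.25 and 10.9 CPM.

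The genes whose log2(CPM + 1) values over the 12 libraries were most like those of *Rps6ka5*, among 12794 genes compared, were *Zfp715* (Pearson r = 0.98), *Dhx33* (0.97), *Ercc4* (0.96), *Hrk* (0.96) and *A430033K04Rik* (0.96). Like *Rps6ka5*, each was lower in the mean of the lesioned side under both treatments. *Hrk*, for example, averaged 15 and 9.8 CPM after acute and 17.3 and 7.99 CPM after chronic L-DOPA. Of 3 spiny neuron genes, *Drd1a* had r = 0.84, *Ppp1r1b* 0.77 and *Drd2* -0.21 with *Rps6ka5*. *Rps6ka4* had r = 0.53 with *Rps6ka5*. The genes most like *Rps6ka4* were *Mtap1s* (0.93), *Zdhhc8* (0.92), *Grin1* (0.92), *Fam160b2* (0.91) and *Smarcd1* (0.90). With *Rps6ka4* the r of *Ppp1r1b* was 0.81, of *Drd1a* 0.50 and of *Drd2* -0.07. These correlations are descriptions over libraries that share sides, treatments and preparation, and the top of so long a list is high in part by selection.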

How the data were processed

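Per the labels and the study's methods, TruSeq libraries from 0.5 µg of total RNA were sequenced on a Genome Analyzer II, mapped to mm9 with the Genomatix Mining Station and counted per annotated transcript. The deposited table holds raw read counts and the authors' normalized expression (NE), a signal scaled by transcript length and library size. Settings for strand and for reads with several positions are not given in the sources used here. The tables of the authors' own comparisons hold their fold changes and p-values, with 36 per-sample columns, and were not used. The 296 transcripts without a gene name (0.0485% of counts) were left out. The upstream window of 1 of the 9 genes is not reported here.

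Counts of all transcripts were fitted with edgeR 4.0.16 in R 4.3.3 (filterByExpr, TMM, glmQLFit, glmQLFTest), using the 6 libraries of a comparison, or all 12 for the difference of the lesion effects. P-values were adjusted by Benjamini-Hochberg over all transcripts tested, and an adjusted p below 0.05 is called. Standard errors are the log2 fold change divided by the square root of F, and intervals are 2 SE either side. CPM are TMM-scaled. Each gene is given by its transcript of highest mean CPM. All 9 genes were named, with the pathway genes of at least 1 CPM called with the 3 largest rises and falls in each comparison and the 5 genes most like *Rps6ka5* and *Rps6ka4*. The members and lists were chosen with earlier results of these data known.

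Libraries of the lesioned and unlesioned side with the same number deviated together from their group means (r = 0.437, 0.403 and 0.303 for acute and 0.464, 0.526 and 0.133 for chronic L-DOPA, over 15368 genes), so the numbers were taken to pair the samples within a treatment. They do not pair acute with chronic animals. The labels do not say beyond this which libraries came from 1 animal, and p-values measure the spread between these samples.

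The alternatives were DESeq2 1.42.0 and its size factors, no filter, 1 transcript a gene, the replicate block, all libraries in 1 fit, another transcript of the gene and the omission of each library. A cortical marker covariate and removal of each library's trend with GC content and length (GENCODE vM1 coding transcripts) were added after seeing the data. Tested on simulated data for the acute lesion comparison, the edgeR fit recovered 97 of 109 transcripts changed by 1 and 91 of 91 changed by 2 on the log2 scale, with 6 false calls among 194 over 129920 tested. For the difference of the lesion effects it recovered 41 of 93 and 103 of 107, with 10 false calls among 154 over 130349 tested. The simulated counts were drawn independently, with the same spread setting for all transcripts, no pairing and few changed transcripts. These rates need not hold for the data.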

Additional observations from a re-analysis of the deposited data

Results flagged for a closer look

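The lesion effect (lesioned minus unlesioned striatum) of 4 named pathway genes differed between chronic and acute L-DOPA in the edgeR interaction test over 12 libraries. It was larger after chronic treatment for *Dusp5* by 3.39 on the log2 scale (SE 0.17, adjusted p = 1.05e-07), for *Dusp1* by 1.17 (SE 0.14, adjusted p = 0.00015) and for *Map2k3*, a kinase gene of the p38 branch, by 1.05 (SE 0.17, adjusted p = 0.0017). For *Dusp6* it was smaller by -1.19 (SE 0.19, adjusted p = 0.00169). None of the 9 kinase genes met this criterion, while *Rps6ka6* and *Mapk3* met it in the edgeR fit with the replicate block. Groups of 3 libraries are too small for a test of single outlying samples.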

How the results depend on the processing

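The number of kinase genes called after acute L-DOPA was 1 and became 2 with the replicate block, while the share of all genes called rose from 15.3% to 25.1%. After chronic L-DOPA it was 2 and became 4 with the GC and length trend removed, without or with the block, where 18.1% and 32.5% of all genes were called, beside 13.7%. For the difference of the lesion effects it was 0, beside 5.1% of all genes. It became 2 under DESeq2 (3.52% of 39267 genes, with no filter on low counts) and with the replicate block (13.4%). It also became 2 with the GC and length trend removed (8.92%, or 20.2% with the block), and 1 with the cortical covariate (4.92%) or among genes with known GC content (6.54%). With each library left out in turn it stayed at 1 after acute and at 2 after chronic L-DOPA, ranged from 1 to 2 for chronic against acute treatment in the lesioned striatum, stayed at 0 in the unlesioned striatum and ranged from 0 to 1 for the difference of the lesion effects. The change from 2 to 1 came without chronic lesioned replicate 1. The changes from 0 to 1 came without chronic lesioned replicate 2 (*Mapk3*) or replicate 3 (*Rps6ka6*). Calls that changed under the block are given beside the results, and the block changed no other call of the 9 genes. The cause of these changes was not tested.

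The signs that turned belonged to uncalled differences near 0. *Rps6ka3* turned to 0.01, 0.02 and 0.04 (acute, chronic and the difference of the effects) with the cortical covariate, to 0.00, 0.01 and 0.01 with the GC and length trend removed, with or without the block, and to 0.01, 0.03, 0.00 and 0.03 with its second transcript in the comparisons other than the acute one. *Rps6ka1* turned to -0.05 after chronic L-DOPA with the cortical covariate, and *Mapk3* to -0.00 in the unlesioned striatum without the filter and with its second transcript. With 1 library left out, the ranges that crossed 0 were, after acute L-DOPA, -0.14 to 0.07 for *Rps6ka4*, -0.12 to 0.05 for *Rps6ka3* and -0.12 to 0.07 for *Map2k2*. For chronic against acute treatment in the lesioned striatum they were -0.05 to 0.11 for *Rps6ka4*, -0.15 to 0.05 for *Rps6ka1*, -0.02 to 0.11 for *Rps6ka2* and -0.15 to 0.00 for *Map2k2*. In the unlesioned striatum they were -0.02 to 0.12 for *Rps6ka5*, -0.02 to 0.04 for *Mapk3* and -0.01 to 0.08 for *Map2k1*, and for the difference of the effects -0.09 to 0.04 for *Rps6ka2* and -0.12 to 0.04 for *Rps6ka3*.

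Of the pathway genes, *Spry1* lost its call without acute lesioned replicate 2, *Rasgrf1* under DESeq2 (adjusted p = 0.0624), all 12 libraries in 1 fit, genes of known GC content or 4 of 6 omissions, and *Dusp6* in the unlesioned striatum in the fit of all libraries (adjusted p = 0.068) or 2 of 6 omissions. The replicate block raised the number of transcripts called from 16684 to 28240 after acute L-DOPA, from 15295 to 27506 after chronic L-DOPA and from 5911 to 15879 for the difference of the effects. In the unlesioned striatum the number called ranged from 66 to 14377 with 1 library left out, beside 3370. With 3 libraries a group, changes of the size of the intervals given for the uncalled genes were not excluded.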
